A study of Mus musculus with 57 samples.

Results

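Livers of 7 mice given carbon tetrachloride (CCl4) were compared directly with livers of 4 mice given galactosamine (GAL), 2 hepatotoxicants that were both injected intraperitoneally. These 11 mice are all of those labelled CCl4 or GAL among the 57 mice of the series, which serves to assess methods that estimate cell-type shares from whole-liver expression. Every mouse was a wild-type male of strain C57BL/6JJcl, labelled as 6 weeks old with 1 week of acclimatisation, fasted for 12 h and killed 24 h after dosing, and RNA came from the perfused outer left lateral lobe. The 17 vehicle mice were used only to tell which toxicant departed from vehicle where CCl4 and GAL differed. Of these, 13 were given 0.5% methylcellulose by gavage, 2 were given 0.9% saline intraperitoneally and 2 were given saline into the tail vein. The labels name corn oil among the vehicles, no vehicle mouse is labelled as given it, and the vehicle of each toxicant is not stated. Toxicant and vehicle therefore cannot be told apart, and neither can toxicant and dose: the labels give 10 µL/kg for all groups and no mass of either compound.

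CCl4 is turned by cytochrome P450 2E1 into a radical that attacks membrane lipids, so its damage falls on the hepatocytes around the central vein, where that enzyme is made. GAL enters the galactose pathway of hepatocytes, where its uridine diphosphate derivatives tie up uridine nucleotides that RNA synthesis and protein glycosylation need. Both are standard models of hepatocyte death in rodents. The stress programmes followed here are the unfolded protein response of the endoplasmic reticulum (ER), the transcription factor ATF4 that answers amino acid and ER stress, the antioxidant factor NRF2, and p53, which is stabilised when DNA is damaged or ribosome assembly is disturbed.

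Levels are given as CPM, the deposited estimated counts after TMM scaling with edgeR. The deposited values carry a length correction, so levels of different genes are on a per-length scale. Totals were 15695791 to 27212163 estimated counts per library with CCl4 and 15729159 to 22364210 with GAL. Mitochondrially encoded genes took 9.43% to 14.5% of the total with CCl4 and 9.54% to 20.1% with GAL. The liver label held in all 11 libraries: Alb, the albumin gene, stood at 10268 to 22341 CPM with CCl4 and 18120.3 to 28851 CPM with GAL. Pairs of libraries of the same toxicant correlated at 0.922 to 0.962 with CCl4 and 0.880 to 0.949 with GAL (Pearson's r over genes), and pairs across the toxicants at 0.834 to 0.904. GAL mouse 2 stood apart from the other 3 GAL mice, with a mean r of 0.911 with them where the others had 0.932 to 0.948, and for many hepatocyte genes it lay nearer to vehicle. GAL values are always given in the order of the label numbers 2, 4, 7 and 8, so that this mouse can be read off. No 2 libraries were identical. The labels do not say whether mice of a group were dosed together.

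CCl4 and GAL differed in 6248 of 14708 genes tested (42.5%; edgeR's quasi-likelihood test with Benjamini-Hochberg adjustment, adjusted p under 0.05). Of these, 3263 were higher with CCl4 (22.2% of the genes tested) and 2985 were higher with GAL (20.3%). A positive log2 fold change means higher with CCl4, and each is given ± its standard error. The median over all genes tested was -0.03. With library totals in place of TMM scaling the split moved to 2048 higher with CCl4 and 4213 higher with GAL, and the median over all genes to -0.26. TMM factors behind the CPM values were computed over the CCl4, GAL and vehicle libraries together. They were 1.02 to 1.30 for the CCl4 libraries and 1.38 to 1.58 for the GAL libraries, so that scaling moved with the groups. The direct test used its own factors from the CCl4 and GAL libraries alone, which are not given here. As the shift with library totals shows, small differences toward CCl4 depend on the scaling. For 4008 genes (27.3%) the values of the 7 CCl4 mice and the 4 GAL mice did not overlap, and 3946 of these were called. Leaving out GAL mouse 2 gave 7236 calls and leaving out GAL mouse 4 gave 4897. Among mice with label numbers above 4, of which 6 had CCl4 and 2 had GAL, 5709 genes were called.

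Set against the 17 vehicle mice, which both comparisons share, CCl4 differed in 7582 of 14209 genes (53.4%; 26.2% higher and 27.2% lower) and GAL in 8014 of 15255 (52.5%; 25.1% higher and 27.5% lower). These calls sort the 6248 genes by side. For 1319 genes only the CCl4 comparison was called, and 780 of them were higher with CCl4 than with GAL. For 1890 genes only the GAL comparison was called, and 1179 of them were higher with GAL. Another 1970 genes moved the same way from vehicle under both toxicants by unequal amounts. In 493 genes the toxicants moved apart: 363 rose with CCl4 and fell with GAL, and 130 did the reverse. The remaining 576 were called against vehicle in neither. Against the 2 intraperitoneal saline mice alone, 129 genes were apart and 2221 were called in neither, and with library totals 286 were apart and 247 in neither.

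**Figure D1:**
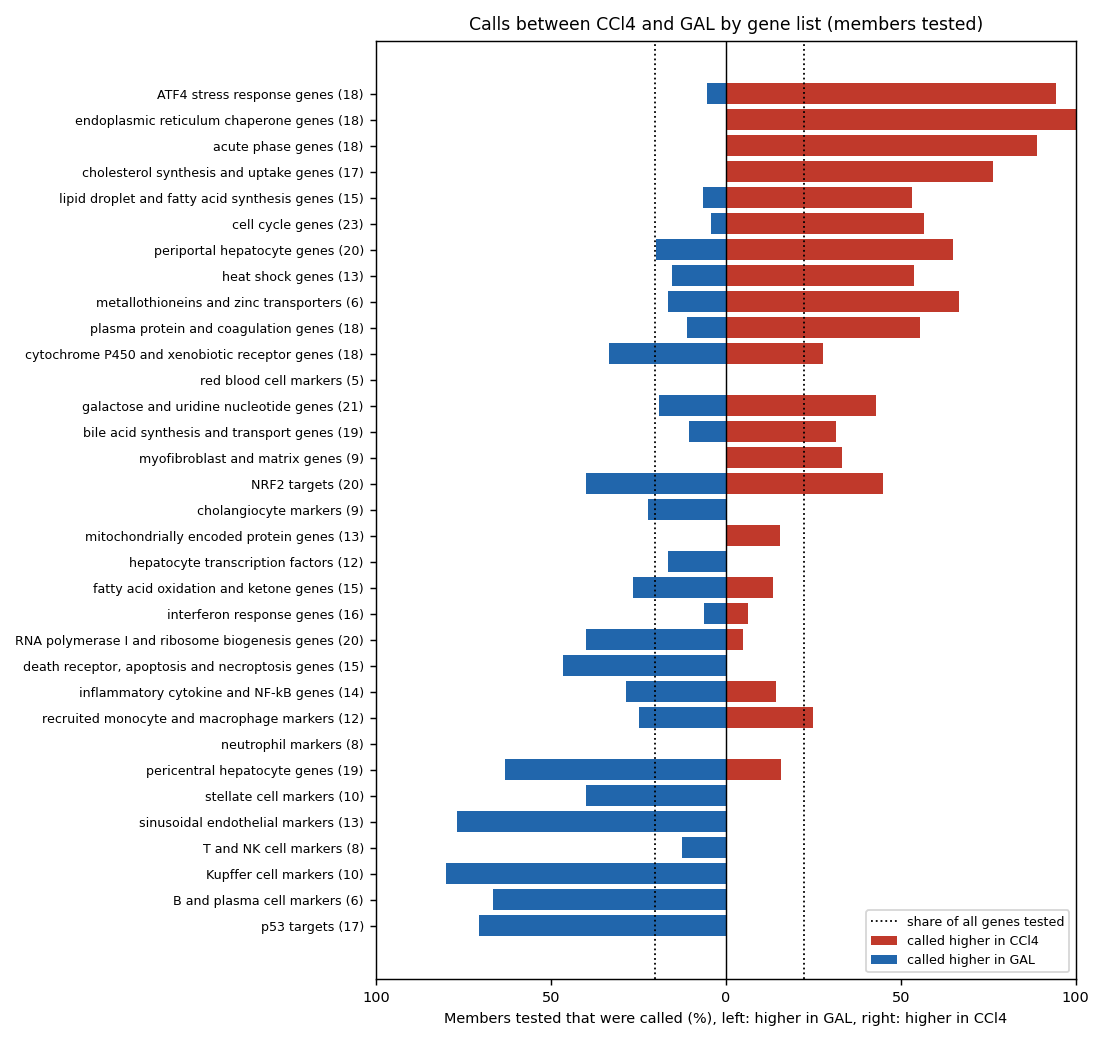
Share of the tested members of each of 33 gene lists called higher with CCl4 (red, to the right) or with GAL (blue, to the left) in percent, with the number tested in brackets, sorted by median log2 fold change. Dotted lines mark the shares over all genes tested, 22.2% and 20.3%. ER chaperone, ATF4, acute phase and cholesterol genes extend farthest to the right, and p53 targets, Kupffer cell and sinusoidal endothelial markers to the left.

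Of the 33 lists, that of ER chaperones was the one with every tested member called in the same direction. All 18 genes were higher with CCl4, with a median log2 fold change of 2.38 where the median of all genes was -0.03, and for 16 of them the groups did not overlap. From vehicle the 2 toxicants went opposite ways in 13 of the 18: with CCl4, 15 rose and 1 fell (median 0.99), and with GAL none rose and 16 fell (median -1.74). Hspa5 encodes BiP, the main chaperone of the ER and the partner that keeps its stress sensors inactive. It lay at 945 to 1745 CPM with a median of 1217 in the CCl4 mice, at 167, 263, 282 and 221 CPM in the GAL mice and at 201 to 540.2 CPM with a median of 327 in the vehicle mice. Its log2 fold change between the toxicants was 2.42 ± 0.20 (edgeR adjusted p = 3.05e-06). All CCl4 mice were above every vehicle mouse, whereas the GAL mice lay within the vehicle range or just under it. Sdf2l1, a cofactor of BiP that rises early in the unfolded protein response, lay at 163 to 226 CPM with a median of 187 in the CCl4 mice, at 14.8, 8.19, 9.44 and 9.20 CPM in the GAL mice and at 17.3 to 91.3 CPM with a median of 49.9 in the vehicle mice. It differed by 4.15 ± 0.20 (edgeR adjusted p = 8.13e-08) and the 3 groups did not overlap: CCl4 mice were highest and GAL mice lowest. Hsp90b1, which encodes the chaperone GRP94, lay at 394 to 1114 CPM with a median of 797 in the CCl4 mice, at 103, 42.0, 116 and 91.7 CPM in the GAL mice and at 106 to 505 CPM with a median of 276 in the vehicle mice, a difference of 3.19 ± 0.34 (edgeR adjusted p = 2.65e-05).

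The secreted ER stress factor Manf differed by 3.23 ± 0.17 (edgeR adjusted p = 1.30e-07) and the disulphide isomerase Pdia4 by 3.00 ± 0.20 (edgeR adjusted p = 7.44e-07). Pdia4 had medians of 194 CPM with CCl4, 22.4 CPM with GAL and 110.3 CPM with vehicle. Another disulphide isomerase, Pdia6, differed by 2.80 ± 0.12, the isomerase Creld2 by 2.98 ± 0.23 and the co-chaperone Dnajc3 by 2.34 ± 0.19 (edgeR adjusted p = 3.38e-08, 2.63e-06 and 2.79e-06). The smallest difference in the list was that of Xbp1, the transcription factor of the IRE1 branch, at 0.61 ± 0.17 (edgeR adjusted p = 0.0142). With library totals 16 of the 18 stayed called as higher with CCl4, and without GAL mouse 8 also 16. The departure of GAL from vehicle was smaller with library totals, where 12 of the 18 were below vehicle and 2 above (median -0.87), and against the 2 intraperitoneal saline mice 14 were below and none above.

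Some promoters of this list hold a shared sequence, shown because the members moved together. The ER stress response element, read as CCAAT, then any 9 bases, then CCACG on either strand, is the sequence that the factors NF-Y and ATF6 are known to bind. RefSeq start sites of build GRCm38.p6 gave 16 windows of 250 bases before the start for the 18 genes, matched by symbol. The element was in 7 of the 16 windows (43.8%) and in 37 of 32851 windows of all genes (0.113%). It was in none of the 21 windows of the ATF4 list below. Stretches holding it follow for 4 genes of the list, with the match in capitals, each read 5′ to 3′ on the strand of the gene.
Hspa5, chr2:34772005-34772084, plus strand: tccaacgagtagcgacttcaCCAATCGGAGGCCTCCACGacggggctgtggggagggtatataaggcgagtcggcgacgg
Hsp90b1, chr10:86705513-86705676, minus strand: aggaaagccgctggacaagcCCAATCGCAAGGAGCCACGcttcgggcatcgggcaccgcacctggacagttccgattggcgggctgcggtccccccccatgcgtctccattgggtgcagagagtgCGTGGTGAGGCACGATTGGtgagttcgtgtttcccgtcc
Pdia6, chr12:17266471-17266550, plus strand: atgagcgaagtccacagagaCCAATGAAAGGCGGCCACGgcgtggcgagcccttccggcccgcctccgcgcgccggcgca
Creld2, chr15:88819500-88819579, plus strand: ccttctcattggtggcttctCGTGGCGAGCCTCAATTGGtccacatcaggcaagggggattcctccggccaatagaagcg
The match began 65 bases before the start in Hspa5, 98 in Pdia6 and 126 in Creld2, where it lay on the other strand. Hsp90b1 held 2 matches, one on each strand. A match describes these letters only and was not tested for binding.

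Genes of the ATF4 response were also higher with CCl4. Of 18 tested, 17 were higher with CCl4 and 1 was higher with GAL (median 2.55), and all 18 were called. Against vehicle, CCl4 raised 14 and lowered 2 (median 2.99), while GAL raised 6 and lowered 6 (median 0.06). Nupr1, a small stress-induced chromatin protein, lay at 277 to 652 CPM with a median of 459 in the CCl4 mice, at 4.14, 3.70, 6.92 and 3.58 CPM in the GAL mice and at 0.784 to 3.87 CPM with a median of 2.04 in the vehicle mice, a difference of 6.65 ± 0.38 (edgeR adjusted p = 2.44e-07). The glutathione-degrading enzyme gene Chac1 lay at 28.9 to 48.5 CPM with a median of 33.7 in the CCl4 mice, at 0.381, 0.840, 0.585 and 1.32 CPM in the GAL mice and at 0.399 to 7.72 CPM with a median of 4.45 in the vehicle mice. It differed by 5.49 ± 0.33 (edgeR adjusted p = 3.64e-07), and the GAL mice lay at the low end of a wide vehicle range. The 2 intraperitoneal saline mice were at 5.34 and 4.82 CPM, above every GAL mouse. Phgdh, the first enzyme of serine synthesis, differed by 4.61 ± 0.39 (edgeR adjusted p = 4.28e-06), with medians of 19.6 CPM with CCl4, 0.623 CPM with GAL and 0.329 CPM with vehicle. The pro-apoptotic factor CHOP is encoded by Ddit3, which lay at 266 to 479.8 CPM with a median of 360.5 in the CCl4 mice, at 7.39, 28.5, 21.5 and 15.6 CPM in the GAL mice and at 4.48 to 16.3 CPM with a median of 9.23 in the vehicle mice. It differed by 4.28 ± 0.37 (edgeR adjusted p = 4.97e-06): every CCl4 mouse was far above all others, and 2 of the 4 GAL mice lay above the vehicle range.

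Ddit4, an inhibitor of mTORC1 signalling that other stress factors also induce, was the one member higher with GAL, at -1.47 ± 0.16 (edgeR adjusted p = 2.74e-05), with medians of 6.52 CPM with CCl4, 16.8 CPM with GAL and 13.5 CPM with vehicle. Asns, the asparagine synthetase gene, differed by 2.41 ± 0.21 (edgeR adjusted p = 5.56e-06) and Atf3 by 2.92 ± 0.46 (edgeR adjusted p = 4.24e-04). Atf4 itself differed by 0.92 ± 0.12 (edgeR adjusted p = 1.24e-04), with medians of 130.3 CPM with CCl4, 68.6 CPM with GAL and 63.2 CPM with vehicle, so its transcript moved less than those of most genes on the list. With library totals GAL raised 11 of the 18 and lowered 3, so whether GAL left these genes near vehicle depends on the scaling.

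**Figure D2:**
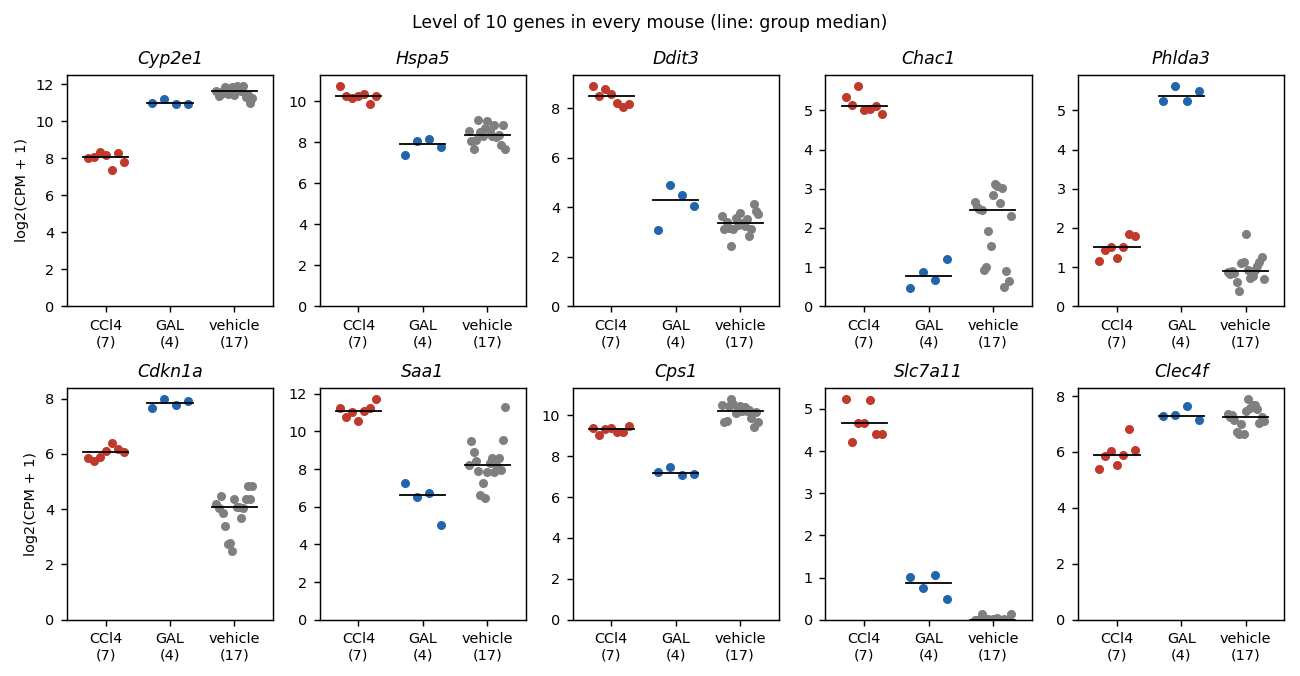
Level of 10 genes in each of the 7 CCl4, 4 GAL and 17 vehicle mice as log2(CPM + 1), 1 point per mouse, with a line at each group's median. CCl4 points stand above all others for Hspa5, Ddit3, Chac1 and Slc7a11, GAL points stand above all others for Phlda3 and Cdkn1a, and CCl4 points stand below all others for Cyp2e1.

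The element bound by ATF4 together with C/EBP factors, TGATGNAA on either strand, was in 6 of the 21 windows of the ATF4 list (28.6%), in 1 of the 16 windows of the ER chaperone list and in 1134 of all 32851 windows (3.45%). The 18 genes all had at least 1 window. No window of any gene held both elements, so the matches never overlapped. Stretches from 3 of the 6 genes follow in the same build and format.
Chac1, chr2:119351029-119351108, plus strand: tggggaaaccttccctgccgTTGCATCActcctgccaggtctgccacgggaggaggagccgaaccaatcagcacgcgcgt
Nupr1, chr7:126625521-126625600, minus strand: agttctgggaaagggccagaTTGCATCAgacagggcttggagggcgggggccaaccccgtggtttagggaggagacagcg
Asns, chr6:7693210-7693289, minus strand: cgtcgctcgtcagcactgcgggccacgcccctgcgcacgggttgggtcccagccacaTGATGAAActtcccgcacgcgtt
The match began 193 bases before the start in Chac1 and 110 in Nupr1, both on the other strand, and 23 bases before the start in Asns.

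Targets of p53 went the other way. Of 17 tested, 12 were higher with GAL and none with CCl4, with a median log2 fold change of -1.38, and both toxicants raised most of them over vehicle: CCl4 raised 11 and GAL 13, and each lowered 1. Phlda3, an inhibitor of AKT signalling, lay at 1.22 to 2.57 CPM with a median of 1.85 in the CCl4 mice, at 37.0, 48.6, 36.7 and 44.2 CPM in the GAL mice and at 0.319 to 2.58 CPM with a median of 0.863 in the vehicle mice. The difference was -4.47 ± 0.20 (edgeR adjusted p = 4.72e-08), and the GAL mice stood above all other mice while CCl4 and vehicle ranges overlapped. Cdkn1a, which encodes the cell cycle inhibitor p21, lay at 52.1 to 82.8 CPM with a median of 65.9 in the CCl4 mice, at 200.3, 253, 218 and 243 CPM in the GAL mice and at 4.54 to 28.0 CPM with a median of 15.9 in the vehicle mice. It differed by -1.82 ± 0.13 (edgeR adjusted p = 1.29e-06), with 3 separate groups in the order vehicle, CCl4 and GAL. The death receptor gene Tnfrsf10b lay at 1.10 to 2.18 CPM with a median of 2.03 in the CCl4 mice, at 8.64, 21.3, 20.6 and 18.0 CPM in the GAL mice and at 0.0462 to 0.416 CPM with a median of 0.147 in the vehicle mice, a difference of -3.21 ± 0.25 (edgeR adjusted p = 2.45e-06). Plk2, a kinase of the stress response, differed by -3.13 ± 0.28 (edgeR adjusted p = 5.84e-06) and only its GAL comparison with vehicle was called. Mdm2, which encodes the ligase that degrades p53, differed by -1.30 ± 0.30 (edgeR adjusted p = 0.00429), with medians of 23.7 CPM with CCl4, 69.3 CPM with GAL and 9.17 CPM with vehicle. GAL mouse 2 was the lowest of the 4 for Tnfrsf10b and Plk2, though still above every CCl4 mouse.

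**Figure D3:**
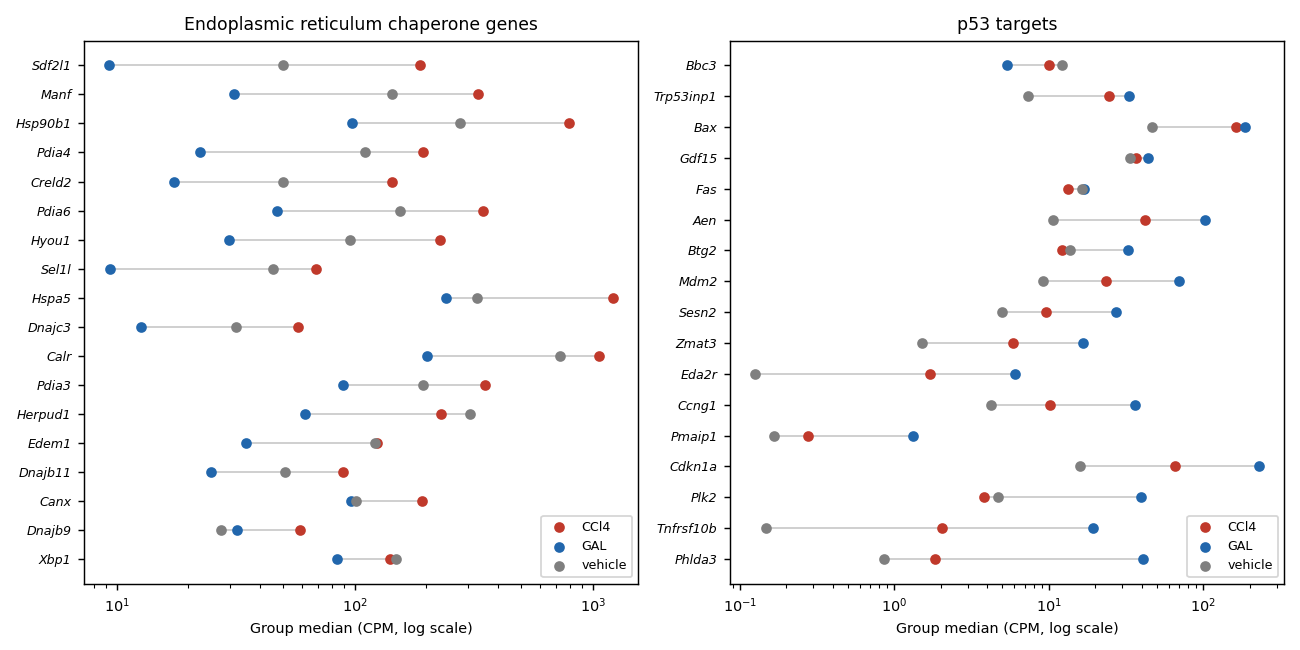
Group medians in CPM (log axis) of the genes of the ER chaperone list (left) and of the p53 target list (right), red for the 7 CCl4 mice, blue for the 4 GAL mice and grey for the 17 vehicle mice. Chaperone medians run from GAL at the low end to CCl4 at the high end, with vehicle mostly between them, and p53 target medians mostly run from vehicle at the low end to GAL at the high end.

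The 10 largest single differences toward CCl4, among called genes that averaged 5 CPM or more over the 11 mice and did not overlap, included Nupr1 of the ATF4 list and Saa2, an acute phase gene, and the others lay outside the lists. Sprr1a, a gene of the cornified envelope of squamous epithelia, lay at 1105 to 4046 CPM with a median of 2803 in the CCl4 mice, at 8.25, 4.27, 1.75 and 4.15 CPM in the GAL mice and at 0 to 12.7 CPM with a median of 0.611 in the vehicle mice, a difference of 9.01 ± 0.64 (edgeR adjusted p = 1.29e-06). Aldh1l2, a mitochondrial enzyme of folate metabolism, lay at 21.96 to 45.1 CPM with a median of 32.0 with CCl4, and every GAL mouse was at or under 3 estimated counts, so no fold is given. The same held for Acot5, a peroxisomal thioesterase gene, at 4.46 to 11.3 CPM with a median of 9.02 with CCl4, and for Sh2d6 at 8.24 to 11.9 CPM with a median of 9.74. Trdc, the constant segment of the T cell receptor delta chain, lay at 68.4 to 90.5 CPM with a median of 74.7 in the CCl4 mice, at 0.345, 0.506, 0.227 and 0.270 CPM in the GAL mice and at 0 to 0.130 CPM with a median of 0.0391 in the vehicle mice. Its level was even over the CCl4 mice, whereas the summed level of 12 T and NK cell markers in the same mice was 5.14 to 27.4 CPM and overlapped that of the GAL mice. The actin cross-linker gene Flnc differed by 6.65 ± 0.28 (edgeR adjusted p = 3.19e-08) and Bhlha15, a transcription factor of secretory cells, by 6.29 ± 0.28 (edgeR adjusted p = 4.63e-08). A second gene identifier that carries the symbol Ddit3 (ENSMUSG00000116429, with a longest transcript of 105 nt) was also among the 10 largest, but it was at 0 in 3 of the 4 GAL mice, and reads may have been divided between the identifiers.

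On the GAL side the 10 largest differences held Phlda3, Tnfrsf10b and Plk2 of the p53 list, and also Psrc1, a microtubule protein gene, at -5.04 ± 0.29 (edgeR adjusted p = 3.09e-07), and Gtse1, whose product acts on p53 and on microtubules, at -4.50 ± 0.36 (edgeR adjusted p = 2.73e-06). Psrc1 lay at 0.158 to 0.695 CPM with a median of 0.420 in the CCl4 mice, at 16.1, 16.4, 11.7 and 14.4 CPM in the GAL mice and at 0 to 1.07 CPM with a median of 0.184 in the vehicle mice, so only the GAL mice were raised. Ddit4l, a relative of Ddit4, differed by -3.37 ± 0.40 (edgeR adjusted p = 5.41e-05). The cytochrome P450 gene Cyp2c40 differed by -3.23 ± 0.34 (edgeR adjusted p = 2.34e-05), with medians of 5.39 CPM with CCl4, 54.8 CPM with GAL and 93.6 CPM with vehicle. The 10 included 3 major urinary protein genes, Mup19, Mup15 and Mup17, at log2 fold changes of -6.01 ± 1.86, -4.86 ± 0.98 and -3.50 ± 0.44. These genes are near-identical copies among which reads can be divided wrongly, so their single values are uncertain.

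Genes of the 2 ends of the liver lobule were lowered unequally. Of 19 pericentral genes tested, 12 were higher with GAL and 3 with CCl4 (median -0.73), and of 20 periportal genes 13 were higher with CCl4 and 4 with GAL (median 0.82, or 1.31 without GAL mouse 2). Both toxicants lowered most of both lists: among these genes CCl4 lowered 18 pericentral and 19 periportal genes, and GAL 13 and 18. For the 20 pericentral genes tested with GAL against vehicle this rested on the settings, with 14 below and 1 above as reported, 8 below and 4 above with library totals, and 9 below against the 2 intraperitoneal saline mice. In whole-liver RNA, fewer cells of a type and less RNA per cell cannot be told apart. Cyp2e1, the enzyme that activates CCl4, lay at 162 to 322 CPM with a median of 270.2 in the CCl4 mice, at 2007, 2323, 1929.6 and 1961 CPM in the GAL mice and at 2006 to 3877 CPM with a median of 3159 in the vehicle mice. It differed by -2.98 ± 0.17 (edgeR adjusted p = 2.34e-07), and the CCl4 mice lay far below all others. Glul, the glutamine synthetase of the last hepatocytes before the central vein, lay at 18.7 to 29.8 CPM with a median of 27.1 in the CCl4 mice, at 383, 66.5, 52.0 and 113 CPM in the GAL mice and at 366 to 742 CPM with a median of 567 in the vehicle mice, a difference of -2.60 ± 0.44 (edgeR adjusted p = 6.23e-04). Both groups were below vehicle but for GAL mouse 2, which lay at the low end of the vehicle range, and without this mouse the difference was -1.60 (edgeR adjusted p = 1.08e-04). The glutamate transporter gene Slc1a2 differed by -2.42 ± 0.46 (edgeR adjusted p = 0.00146) and Cyp2c37 by -2.92 ± 0.14 (edgeR adjusted p = 7.21e-08).

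Not every pericentral gene followed. Cyp1a2 was higher with CCl4 by 1.68 ± 0.36 (edgeR adjusted p = 0.00287), Cyp2c29 by 1.16 ± 0.16 (edgeR adjusted p = 1.52e-04) and Gulo, an enzyme of vitamin C synthesis, by 1.37 ± 0.31 (edgeR adjusted p = 0.00448). Among periportal genes, Cps1, the first enzyme of the urea cycle, lay at 525 to 715 CPM with a median of 644 in the CCl4 mice, at 149.6, 177, 135 and 139 CPM in the GAL mice and at 695 to 1782 CPM with a median of 1196 in the vehicle mice and differed by 2.05 ± 0.12 (edgeR adjusted p = 3.82e-07). CCl4 and GAL mice did not overlap, and every GAL mouse was under every vehicle mouse, whereas the CCl4 and vehicle ranges overlapped. The glucose-releasing enzyme gene G6pc differed by 3.86 ± 0.76 (edgeR adjusted p = 0.00173), with medians of 93.8 CPM with CCl4, 3.41 CPM with GAL and 252 CPM with vehicle. Pck1, of gluconeogenesis, differed by 2.47 ± 0.42 (edgeR adjusted p = 6.58e-04) and Hal, of histidine breakdown, by 1.77 ± 0.37 (edgeR adjusted p = 0.00274). Higher with GAL were Cyp2f2 at -0.68 ± 0.11, Cdh1 at -0.80 ± 0.13, Pigr at -0.70 ± 0.17 and Ctsc at -0.69 ± 0.24, all called by edgeR. The call for Ctsc was lost without CCl4 mouse 1 or 6 or GAL mouse 4, 7 or 8 (edgeR adjusted p up to 0.116). Without GAL mouse 2 the differences were 2.30 for Cyp1a2, 5.23 for G6pc and 2.50 for Hal. With library totals the periportal counts moved to 9 higher with CCl4 and 5 with GAL.

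Cytochrome P450 and xenobiotic receptor genes were split, with 5 of 18 higher with CCl4 and 6 with GAL, or 10 and 5 without GAL mouse 2. Cyp2b10, the classical target of the receptor CAR, lay at 68.1 to 125 CPM with a median of 88.9 in the CCl4 mice, at 7.36, 4.21, 3.51 and 4.20 CPM in the GAL mice and at 21.2 to 61.6 CPM with a median of 39.8 in the vehicle mice. It differed by 4.25 ± 0.26 (edgeR adjusted p = 5.00e-07), above all vehicle mice with CCl4 and below them all with GAL. The fatty acid hydroxylase genes Cyp4a14 and Cyp4a10, targets of the receptor PPARα, went the other way at -2.49 ± 0.15 (edgeR adjusted p = 5.00e-07) and -2.45 ± 0.20 (edgeR adjusted p = 3.22e-06). Cyp4a10 had medians of 180.3 CPM with CCl4, 929.6 CPM with GAL and 425 CPM with vehicle. Cyp1a1 differed by 2.11 ± 0.45 (edgeR adjusted p = 0.00284) and Cyp3a13 by 1.26 ± 0.12 (edgeR adjusted p = 1.33e-05).

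The galactose and uridine nucleotide list, the pathway that GAL itself enters, had 9 of 21 genes higher with CCl4 and 4 with GAL. Upp2, a uridine phosphorylase gene of liver, lay at 5.58 to 23.3 CPM with a median of 10.5 in the CCl4 mice, at 2.97, 1.87, 3.02 and 2.27 CPM in the GAL mice and at 20.2 to 258 CPM with a median of 114 in the vehicle mice. The difference was 2.13 ± 0.40 (edgeR adjusted p = 0.00138). The GAL mice lay below every CCl4 mouse and every vehicle mouse, and the CCl4 and vehicle ranges overlapped through 1 vehicle mouse, the next being at 43.96 CPM. The mutarotase gene Galm differed by 1.19 ± 0.26 (edgeR adjusted p = 0.00361) and the uridylyltransferase gene Galt by 1.09 ± 0.27 (edgeR adjusted p = 0.00656). Galk1, which phosphorylates galactose, had medians of 31.2 CPM with CCl4, 15.6 CPM with GAL and 56.6 CPM with vehicle and differed by 0.63 ± 0.24 (edgeR adjusted p = 0.0483). Ugp2, which makes UDP-glucose, differed by 0.75 ± 0.23 (edgeR adjusted p = 0.0224), and Upp1, the other uridine phosphorylase gene, did not pass the test at 0.12 ± 0.31 (edgeR adjusted p = 0.778). Without GAL mouse 2 the Galk1 difference was 0.99. The call for Galk1 was lost with library totals, where the log2 fold change was 0.35 (edgeR adjusted p = 0.265), and without CCl4 mouse 1, 5, 6, 8, 10, 11 or 12 or GAL mouse 4, 7 or 8 (edgeR adjusted p up to 0.157). The call for Ugp2 was lost with library totals, at 0.51 (edgeR adjusted p = 0.132), among label numbers above 4 (edgeR adjusted p = 0.0752) and without GAL mouse 4, 7 or 8 (edgeR adjusted p up to 0.0704).

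The members higher with GAL (4 of 21, near the 20.3% of all genes) were Uck1, Ctps, Umps and Uck2. The uridine kinase gene Uck1 differed by -1.11 ± 0.13 (edgeR adjusted p = 5.02e-05), with medians of 17.7 CPM with CCl4, 37.8 CPM with GAL and 29.7 CPM with vehicle. Ctps, which makes CTP from UTP, differed by -1.03 ± 0.13 (edgeR adjusted p = 7.98e-05), Umps, of the last steps of new UMP synthesis, by -0.74 ± 0.12 (edgeR adjusted p = 4.60e-04), and the kinase gene Uck2 by -0.73 ± 0.16 (edgeR adjusted p = 0.00345). The counts for the list depended on the scaling, with 5 higher with CCl4 and 6 with GAL under library totals.

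RNA polymerase I and ribosome assembly genes were raised by both toxicants, 19 of 20 by CCl4 and all 20 by GAL against vehicle. Between the toxicants 8 were higher with GAL and 1 with CCl4 (median -0.45), or 5 and 1 without GAL mouse 4 and 5 and 2 without GAL mouse 7 (median -0.29). Polr1b, a subunit of the polymerase, had medians of 13.6 CPM with CCl4, 37.0 CPM with GAL and 8.09 CPM with vehicle and differed by -1.27 ± 0.21 (edgeR adjusted p = 5.40e-04). The nucleolar chaperone gene Nolc1 differed by -1.16 ± 0.20 (edgeR adjusted p = 8.33e-04) and Wdr43, of the small subunit processome, by -0.91 ± 0.29 (edgeR adjusted p = 0.0256). Dkc1, of the pseudouridylation complex, differed by -0.90 ± 0.32 (edgeR adjusted p = 0.0415). Npm1, the nucleophosmin gene, was the member higher with CCl4, at 0.92 ± 0.27 (edgeR adjusted p = 0.0154), but among label numbers above 4 it was at 0.59 and not called (edgeR adjusted p = 0.181). GAL mouse 2 lay within the CCl4 range for Polr1b, Wdr43 and Dkc1. The call for Wdr43 was lost without GAL mouse 4 or 7 (edgeR adjusted p up to 0.108), and that for Dkc1 without CCl4 mouse 5, 6, 8 or 12 or GAL mouse 4, 7 or 8 (edgeR adjusted p up to 0.172).

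NRF2 targets were divided, 9 of 20 higher with CCl4 and 8 with GAL, or 6 and 8 with library totals. Slc7a11, the cystine transporter that feeds glutathione synthesis, lay at 17.4 to 36.7 CPM with a median of 24.3 in the CCl4 mice, at 1.03, 0.672, 1.07 and 0.416 CPM in the GAL mice and at 0 to 0.10 CPM with a median of 0 in the vehicle mice. It differed by 4.99 ± 0.36 (edgeR adjusted p = 1.37e-06), and the GAL mice also lay above every vehicle mouse. The glutathione transferase gene Gsta1 differed by 1.71 ± 0.22 (edgeR adjusted p = 1.00e-04) and the exporter gene Abcc4 by 1.75 ± 0.18 (edgeR adjusted p = 1.80e-05). In the other direction were Cbr3, a carbonyl reductase gene, at -2.51 ± 0.21 (edgeR adjusted p = 3.53e-06), and G6pdx, the NADPH-making first enzyme of the pentose phosphate path, at -2.34 ± 0.15 (edgeR adjusted p = 7.25e-07). Gclc, of glutathione synthesis, differed by -1.79 ± 0.20 (edgeR adjusted p = 2.89e-05) and Nqo1, a quinone reductase gene, by -1.45 ± 0.13 (edgeR adjusted p = 8.08e-06), with medians of 10.1 CPM with CCl4, 28.8 CPM with GAL and 7.10 CPM with vehicle. Hmox1, the haem oxygenase gene, lay at 68.7 to 146 CPM with a median of 104 with CCl4 and at 83.4, 330.4, 304 and 146 CPM with GAL. Its difference was -1.06 ± 0.32 (edgeR adjusted p = 0.0201), with overlapping groups, and the call was lost without GAL mouse 4 or 7 (edgeR adjusted p up to 0.0953).

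Heat shock genes included 7 of 13 higher with CCl4 and 2 with GAL, or 1 with GAL without GAL mouse 4 or 8. Hspb1, a small heat shock protein gene, differed by 4.29 ± 0.24 (edgeR adjusted p = 2.52e-07), with medians of 1054 CPM with CCl4, 45.2 CPM with GAL and 16.9 CPM with vehicle. The mitochondrial chaperonin gene Hspe1 differed by 1.69 ± 0.17 (edgeR adjusted p = 1.47e-05) and the constitutive chaperone gene Hspa8 by 1.52 ± 0.20 (edgeR adjusted p = 1.02e-04). The inducible pair Hspa1a and Hspa1b was higher with GAL, at -2.31 ± 0.54 (edgeR adjusted p = 0.00508) and -1.27 ± 0.38 (edgeR adjusted p = 0.0189), and as near-identical copies the members cannot be read apart. The call for Hspa1b was lost without GAL mouse 4 or 8 (edgeR adjusted p up to 0.0615). Of 6 metallothionein and zinc transporter genes, 4 were higher with CCl4 and 1 with GAL, or 1 and 1 with library totals, and none with GAL without GAL mouse 4, 7 or 8. Mt2 differed by 0.73 ± 0.19 (edgeR adjusted p = 0.00857), a call lost with library totals (edgeR adjusted p = 0.0825).

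**Figure D4:**
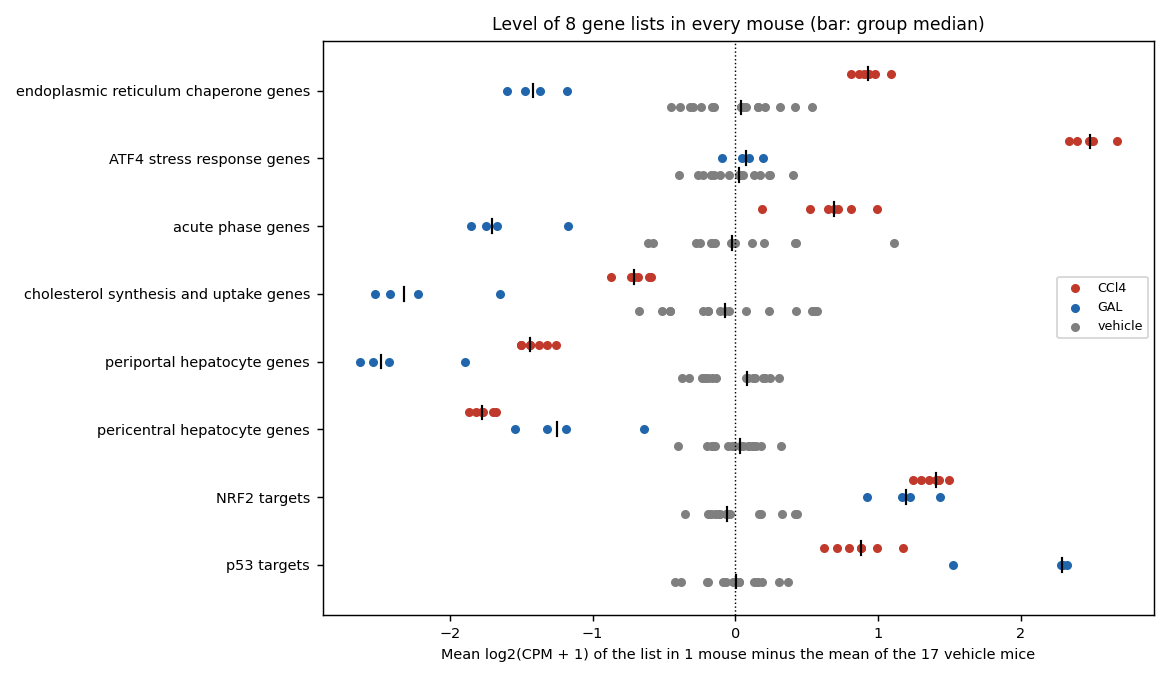
Mean log2(CPM + 1) over the genes of 8 lists in each mouse, minus the mean of the 17 vehicle mice, 1 point per mouse and a bar at each group's median. CCl4 and GAL points lie on opposite sides of the vehicle points for ER chaperone genes, with medians of 0.93 and -1.42, GAL points lie within the vehicle range for ATF4 genes, and GAL mouse 2 is the point nearest to vehicle in the cholesterol, periportal, pericentral and p53 lists.

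Acute phase genes were higher with CCl4 in 16 of 18 cases and with GAL in none (median 1.87). From vehicle, CCl4 raised 7 and lowered 5, and GAL lowered 16 and raised none. Saa1, a serum amyloid gene, lay at 1486 to 3393 CPM with a median of 2195 in the CCl4 mice, at 153, 90.3, 106 and 31.8 CPM in the GAL mice and at 86.3 to 2522 CPM with a median of 293 in the vehicle mice, a difference of 4.54 ± 0.43 (edgeR adjusted p = 1.03e-05). The near-identical gene Saa2 differed by 6.08 ± 0.48 (edgeR adjusted p = 2.73e-06), and reads can be divided wrongly between the pair. The vehicle range for Saa1 overlapped both groups, that of CCl4 through gavage vehicle mouse 18 alone, since the next highest vehicle mouse was at 749 CPM. This mouse also had the highest neutrophil marker sum of the vehicle mice, 81.4 CPM, and the part of neutrophils in its levels was not tested. Lcn2, the iron-scavenging lipocalin gene, lay at 384 to 709.8 CPM with a median of 549.6 in the CCl4 mice, at 36.0, 8.58, 12.2 and 11.1 CPM in the GAL mice and at 10.1 to 800.3 CPM with a median of 66.9 in the vehicle mice and differed by 4.92 ± 0.46 (edgeR adjusted p = 8.69e-06), or 5.60 without GAL mouse 2. The highest Lcn2 value of the vehicle mice was again that of mouse 18, and the next was 253 CPM. Apcs, the mouse serum amyloid P gene, differed by 3.24 ± 0.23 (edgeR adjusted p = 1.27e-06), with medians of 160.1 CPM with CCl4, 15.1 CPM with GAL and 113 CPM with vehicle. With library totals CCl4 raised 13 of the 18 and GAL lowered 9, so the direction between the toxicants held while the distance of each from vehicle moved.

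Other secreted proteins were lowered by both. Of 18 plasma protein and coagulation genes, 17 fell with each toxicant, and between the toxicants 10 were higher with CCl4 and 2 with GAL (median 0.55), or 9 and 4 with library totals (median 0.30). The coagulation factor genes F11, F7 and F10 differed by 1.87 ± 0.24 (edgeR adjusted p = 1.08e-04), 1.31 ± 0.23 (edgeR adjusted p = 8.52e-04) and 1.27 ± 0.17 (edgeR adjusted p = 1.07e-04). Apob, of the lipoprotein coat, differed by 1.29 ± 0.35 (edgeR adjusted p = 0.0105), but among label numbers above 4 it was at 0.79 and not called (edgeR adjusted p = 0.1002). Apoa2 was higher with GAL by -0.93 ± 0.09 (edgeR adjusted p = 1.66e-05) and F12 by -0.44 ± 0.10 (edgeR adjusted p = 0.00453). Alb did not pass the test, at -0.42 ± 0.18 (edgeR adjusted p = 0.0789). Of 12 hepatocyte transcription factor genes, 2 were higher with GAL, under the 20.3% of all genes, and none with CCl4: Cebpa by -1.004 ± 0.12 (edgeR adjusted p = 5.63e-05) and Foxa2 by -0.92 ± 0.24 (edgeR adjusted p = 0.00869). Without GAL mouse 2 these counts were 2 with GAL and 3 with CCl4, and with library totals 5 and none.

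Cholesterol synthesis genes were lower with GAL than with CCl4. Of 17, CCl4 lowered 13 from vehicle and GAL 16. The CCl4 count was 6 with library totals, 9 against the 2 intraperitoneal saline mice and 5 with the label number as a replicate block, and the GAL count 13 to 15 in these settings. Between the toxicants 13 were higher with CCl4 than with GAL, none the other way (median 1.40). Fdps, which makes farnesyl diphosphate, lay at 85.1 to 123 CPM with a median of 116 in the CCl4 mice, at 16.5, 6.78, 4.88 and 6.99 CPM in the GAL mice and at 95.4 to 386 CPM with a median of 198 in the vehicle mice and differed by 3.67 ± 0.32 (edgeR adjusted p = 5.73e-06). Insig1, the sterol sensor that holds SREBP in the ER, differed by 2.81 ± 0.19 (edgeR adjusted p = 7.48e-07). Nsdhl differed by 2.85 ± 0.22 (edgeR adjusted p = 2.45e-06) and Cyp51 by 2.63 ± 0.33 (edgeR adjusted p = 7.37e-05), both enzymes of the late pathway. GAL mouse 2 had the highest value of the 4 GAL mice for Nsdhl and Cyp51 and was still under every CCl4 mouse. Genes of fatty acid synthesis and lipid droplets followed in 8 of 15 cases with 1 the other way (median 1.07), or 2 with library totals. Scd1, the stearoyl-CoA desaturase gene, differed by 3.19 ± 0.35 (edgeR adjusted p = 3.08e-05), Fasn by 1.84 ± 0.34 (edgeR adjusted p = 0.00125) and their regulator Srebf1 by 1.71 ± 0.43 (edgeR adjusted p = 0.00794), or 2.52 without GAL mouse 2. Cidec, a lipid droplet protein gene, was the one higher with GAL, at -1.55 ± 0.30 (edgeR adjusted p = 0.00172).

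Of 15 fatty acid oxidation genes, 2 were higher with CCl4 and 4 with GAL, in all a share near the 42.5% of all genes, or none and 8 with library totals, and none and 3 without GAL mouse 8. Ehhadh, of peroxisomal oxidation, differed by -1.77 ± 0.15 (edgeR adjusted p = 5.20e-06) and Acot1 by -1.38 ± 0.16 (edgeR adjusted p = 3.61e-05). Ehhadh lay at 37.9 to 54.8 CPM with a median of 48.9 with CCl4 and at 196, 155, 108 and 190.5 CPM with GAL, without overlap. Cpt1a, the carnitine transferase of mitochondrial entry, was higher with CCl4 by 1.001 ± 0.34 (edgeR adjusted p = 0.0322), though GAL mouse 2, at 50.9 CPM, lay among the CCl4 mice. Without GAL mouse 2 the Cpt1a difference was 1.61. The call for Cpt1a was lost with library totals, at 0.72 (edgeR adjusted p = 0.132), and without CCl4 mouse 10 or 12 or GAL mouse 4, 7 or 8 (edgeR adjusted p up to 0.0997). Of 19 bile acid genes tested, 6 were higher with CCl4 and 2 with GAL, in all a share near the 42.5% of all genes, or 9 and 2 without GAL mouse 2. Cyp8b1, which sets the share of cholic acid, differed by 3.87 ± 0.54 (edgeR adjusted p = 1.77e-04), or 4.75 without GAL mouse 2, with medians of 30.2 CPM with CCl4, 1.33 CPM with GAL and 286 CPM with vehicle. The canalicular bile salt pump gene Abcb11 differed by 2.57 ± 0.15 (edgeR adjusted p = 3.51e-07) and the uptake carrier gene Slco1b2 by 1.76 ± 0.29 (edgeR adjusted p = 5.81e-04). Abcc3 and Slc27a5 were higher with GAL, at -0.85 ± 0.16 (edgeR adjusted p = 0.00146) and -0.80 ± 0.10 (edgeR adjusted p = 9.53e-05). Of 13 mitochondrially encoded protein genes, mt-Nd1 and mt-Nd2 were called, both higher with CCl4 at 0.65 ± 0.13 and 0.64 ± 0.14 (edgeR adjusted p = 0.00206 and 0.00298), and without GAL mouse 2 or with library totals another 3 were called higher with GAL.

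Cell cycle genes were higher with CCl4 in 13 of 23 cases and with GAL in 1 (median 0.87). Rrm2, the ribonucleotide reductase subunit made for DNA synthesis, differed by 1.93 ± 0.25 (edgeR adjusted p = 1.08e-04), Foxm1 by 1.85 ± 0.40 (edgeR adjusted p = 0.00311) and Cdk1 by 1.49 ± 0.24 (edgeR adjusted p = 4.22e-04). Mki67, the proliferation marker, lay at 0.390 to 1.49 CPM with a median of 0.589 in the CCl4 mice, at 0.263, 0.202, 0.390 and 0.197 CPM in the GAL mice and at 0.0599 to 0.921 CPM with a median of 0.104 in the vehicle mice and differed by 1.38 ± 0.44 (edgeR adjusted p = 0.0248). All but 1 of the CCl4 mice lay within the vehicle range, whose upper end was set by 1 mouse, with the next at 0.425 CPM. Top2a, the DNA topoisomerase of dividing cells, differed by 1.26 ± 0.39 (edgeR adjusted p = 0.0231). The call for Mki67 was lost with library totals, at 1.16 (edgeR adjusted p = 0.0567), among label numbers above 4 (edgeR adjusted p = 0.128), with the range of label numbers as a covariate (edgeR adjusted p = 0.0693) and without GAL mouse 4 or 8 (edgeR adjusted p up to 0.0833), and that for Top2a without GAL mouse 7 or 8 (edgeR adjusted p up to 0.0744). Ccnd1, the G1 cyclin gene, had medians of 39.7 CPM with CCl4, 20.5 CPM with GAL and 8.47 CPM with vehicle and differed by 0.86 ± 0.20 (edgeR adjusted p = 0.00489). Pcna, the sliding clamp, which p53 also induces, was the one higher with GAL, at -0.50 ± 0.13 (edgeR adjusted p = 0.00757).

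Death receptor and apoptosis genes were higher with GAL in 7 of 15 cases and with CCl4 in none, or 1 without GAL mouse 4 or 7. Bcl2l11, which encodes BIM, differed by -1.56 ± 0.26 (edgeR adjusted p = 6.59e-04) and Bid by -1.30 ± 0.12 (edgeR adjusted p = 6.44e-06), both promoters of mitochondrial apoptosis. Bid had medians of 11.1 CPM with CCl4, 27.6 CPM with GAL and 8.07 CPM with vehicle and did not overlap between the toxicants. Birc3, an inhibitor of cell death, differed by -0.80 ± 0.18 (edgeR adjusted p = 0.00358) and Tnfrsf1b, the second TNF receptor gene, by -0.66 ± 0.16 (edgeR adjusted p = 0.00600). Of 14 inflammatory genes tested, 2 were higher with CCl4 and 4 with GAL, in all a share near the 42.5% of all genes. Il1rn, the interleukin-1 receptor antagonist gene, differed by 1.95 ± 0.31 (edgeR adjusted p = 4.46e-04), and the chemokine gene Cxcl1 by 1.499 ± 0.38 (edgeR adjusted p = 0.00773). Il1a, Il1b, Icam1 and Nfkbia were higher with GAL, at -1.23 ± 0.29, -0.97 ± 0.32, -1.07 ± 0.19 and -0.996 ± 0.17, and the call for Il1b was lost without GAL mouse 4 or 7 (edgeR adjusted p up to 0.115). Tnf did not pass the test at -0.41 ± 0.43 (edgeR adjusted p = 0.465). Of 16 interferon response genes, Rsad2 was higher with CCl4 and Ifit2 with GAL, fewer than the share of all genes called. Both calls were lost when single mice were left out, Rsad2 without CCl4 mouse 1, 5, 10 or 12 or GAL mouse 4, 7 or 8 (edgeR adjusted p up to 0.124), and Ifit2 without CCl4 mouse 8 or GAL mouse 4, 7 or 8 (edgeR adjusted p up to 0.125). Rsad2 was also lost with library totals, at 0.49 (edgeR adjusted p = 0.143). Cxcl10 did not pass the test at 0.29 ± 0.42 (edgeR adjusted p = 0.606).

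Markers of other liver cells differed beside these results. Kupffer cells, the resident macrophages, had 8 of 10 markers higher with GAL and none with CCl4 (median -1.17). Their summed level was 190.9 to 469 CPM with CCl4, 604, 652, 758 and 559 CPM with GAL and 301 to 677 CPM with vehicle, a log2 difference of -0.98 (two-sided exact permutation test over 330 divisions of the mice, p = 0.00606, the smallest possible, and 0.0202 adjusted over 10 lists). Clec4f, the defining Kupffer cell lectin, lay at 41.4 to 113 CPM with a median of 58.3 in the CCl4 mice, at 154, 159, 199 and 139.8 CPM in the GAL mice and at 97.8 to 238 CPM with a median of 152 in the vehicle mice and differed by -1.36 ± 0.24 (edgeR adjusted p = 7.98e-04). GAL mice lay inside the vehicle range, and 6 of the 7 CCl4 mice lay below it. Vsig4 differed by -1.33 ± 0.19 (edgeR adjusted p = 2.13e-04) and Folr2 by -1.30 ± 0.24 (edgeR adjusted p = 0.00123). With library totals 9 of the 10 markers were above vehicle with GAL, so the distance of GAL from vehicle depends on the scaling.

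Sinusoidal endothelial markers were higher with GAL in 10 of 13 cases and with CCl4 in none, with a log2 difference of summed levels of -0.81 (exact permutation p = 0.00606, adjusted 0.0202). Kdr, the main VEGF receptor gene, differed by -1.03 ± 0.15 (edgeR adjusted p = 1.90e-04) and Bmp2 by -1.63 ± 0.23 (edgeR adjusted p = 1.92e-04). Stellate cell markers were higher with GAL in 4 of 10 cases, or 8 with library totals and 7 without GAL mouse 2, and their summed level differed by -0.73 (exact permutation p = 0.00606, adjusted 0.0202). Dcn, the decorin gene, differed by -0.99 ± 0.29 (edgeR adjusted p = 0.0163), with GAL mouse 2 among the CCl4 mice, and its call was lost without GAL mouse 7 (edgeR adjusted p = 0.0792). Of 9 matrix and contractile genes of myofibroblasts, 3 were higher with CCl4 and none with GAL, in all a share under the 42.5% of all genes. With library totals the counts were 2 and 2. Their summed level was higher with CCl4 by 0.43 (exact permutation p = 0.0242, adjusted 0.0485), which fell to 0.18 with library totals (adjusted 0.386). Acta2, the smooth muscle actin gene, differed by 1.99 ± 0.32 (edgeR adjusted p = 4.99e-04) and Tagln by 1.09 ± 0.26 (edgeR adjusted p = 0.00634), whereas Col1a1 did not pass the test at 0.43 ± 0.21 (edgeR adjusted p = 0.119).

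Markers of blood-borne cells differed in part. Neutrophil markers had 8 tested and none called, or 1 higher with GAL with library totals, with summed levels of 12.7 to 90.7 CPM with CCl4 and 35.1 to 51.4 CPM with GAL (exact permutation p = 0.867), and S100a8 was at 0.58 ± 0.43 (edgeR adjusted p = 0.306). Of 12 markers of recruited monocytes and macrophages, 3 were higher with each toxicant, near the 22.2% and 20.3% of all genes. With GAL only 1 was higher without GAL mouse 4 or 7, and with library totals 2 were higher with CCl4 and 5 with GAL. Their median log2 fold change was -0.58, toward GAL. Their summed level pointed toward CCl4 and did not pass the test (log2 difference 0.54, exact permutation p = 0.0424, adjusted 0.0707). The sum weighs genes of high level most: its median with CCl4 was 603 CPM, beside 367 CPM for Lgals3 alone. Lgals3, the galectin-3 gene, lay at 271 to 454 CPM with a median of 367 in the CCl4 mice, at 89.6, 99.7, 184 and 112 CPM in the GAL mice and at 5.25 to 71.7 CPM with a median of 18.9 in the vehicle mice and differed by 1.55 ± 0.22 (edgeR adjusted p = 1.68e-04), whereas the elastase gene Mmp12 was higher with GAL by -1.49 ± 0.48 (edgeR adjusted p = 0.0249), a call lost without GAL mouse 4 or 7 (edgeR adjusted p up to 0.123). B and plasma cell markers were higher with GAL in 4 of 6 cases, or 1 among label numbers above 4 (summed log2 difference -1.21, exact permutation p = 0.0121, adjusted 0.0303). T and NK cell markers had 1 of 8 called, Cd3g at -1.29 ± 0.44 (edgeR adjusted p = 0.0333), which was lost without CCl4 mouse 1, 10 or 12 or GAL mouse 4, 7 or 8 (edgeR adjusted p up to 0.102) (summed log2 difference -0.60, exact permutation p = 0.115). Of 9 cholangiocyte markers tested, Epcam and Muc1 were higher with GAL, a share near the 20.3% of all genes. Krt19 was at 0.09 ± 0.37 (edgeR adjusted p = 0.865), and the summed levels overlapped (exact permutation p = 0.982). The calls were lost without GAL mouse 7 (edgeR adjusted p = 0.0503) for Epcam and without CCl4 mouse 1 or 10 or GAL mouse 4, 7 or 8 (edgeR adjusted p up to 0.114) for Muc1. No red blood cell marker of 5 was called (exact permutation p = 0.812). No marker of any list was at 0 in all 11 mice. The part of these cells in the gene differences above was not tested.

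**Figure D5:**
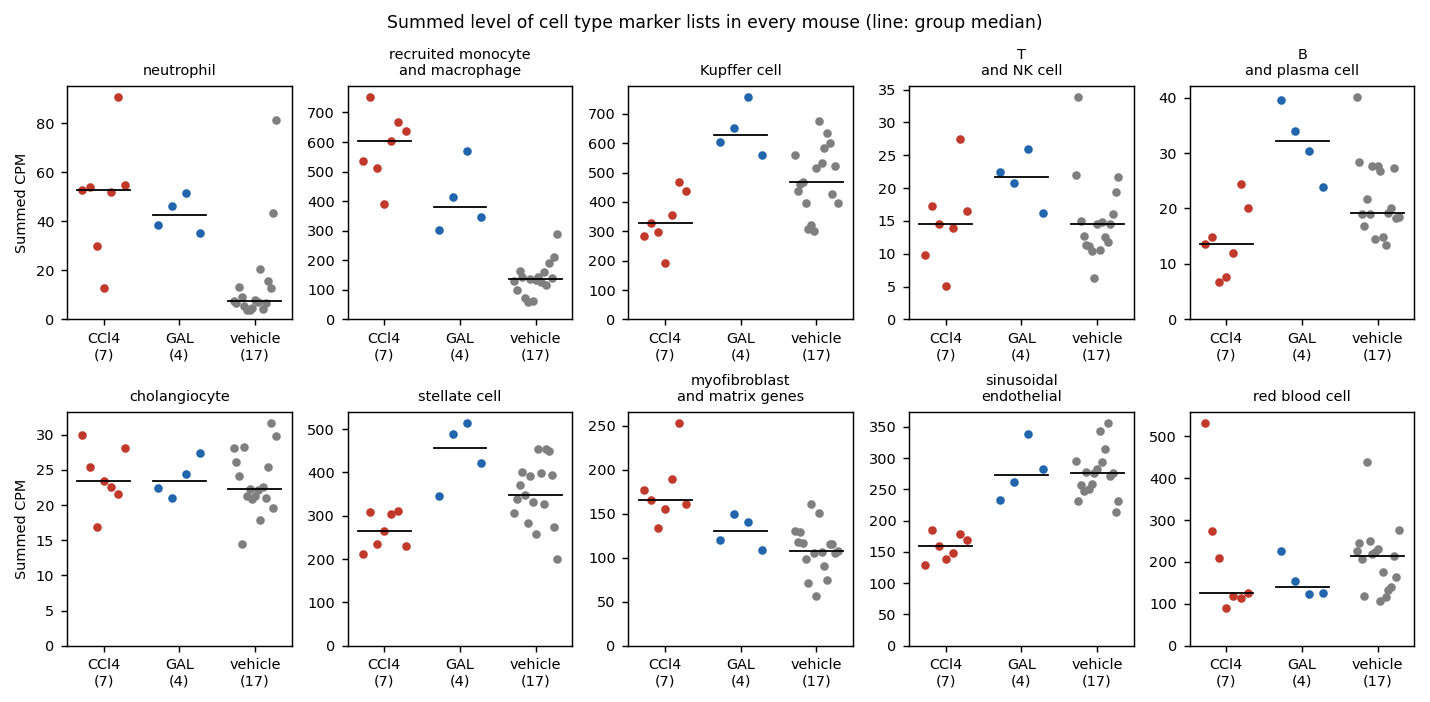
Summed level in CPM of 10 lists of cell type markers in each of the 7 CCl4, 4 GAL and 17 vehicle mice, 1 point per mouse with a line at the group median. The Kupffer, sinusoidal endothelial and stellate panels show all GAL mice above all CCl4 mice, while the neutrophil, cholangiocyte and red blood cell panels overlap.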

How the data were processed

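Whole-liver RNA of 57 mice was sequenced, and 11 libraries (7 CCl4, 4 GAL) were compared, with 17 vehicle libraries used to give the side of a difference. Poly(A) libraries were made with a stranded kit and read single-end, per the labels' protocols. The authors deposited a table of estimated counts for 54307 gene identifiers. The submitters' processing notes name Salmon 1.6.0, R 4.1.3 and build GRCm39, and the annotation and strand setting are not given in the sources used here. Longer genes had lower minimum nonzero values (rho -0.76 over 13043 genes with 1 transcript, Spearman), so the deposited estimated counts are on a length-corrected scale and a read in a short gene weighs more. Symbols came from a GENCODE M21 name table and matched 51482 identifiers. Coordinates are printed for promoter windows alone, on the build of the RefSeq table they came from, which is not the build of the counts.

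Estimated counts were rounded and tested with edgeR 4.0.16 in R 4.3.3 (filterByExpr, TMM scaling, quasi-likelihood test, two-sided, Benjamini-Hochberg adjustment over all genes tested, called under 0.05) on the CCl4 and GAL libraries alone. The same test against all 17 vehicle mice gave the side. Where mice came from separate litters or cages is not stated, so p-values measure the spread between these mice. On simulated data with 200 genes changed, the direct test recovered 21.7% of genes changed 2-fold and 75.5% of genes changed 4-fold. Of its 96 calls among 14359 genes, 5.21% were false. In the data 6248 genes were called, which makes the adjusted threshold less strict, so these shares do not measure the power of the reported test. Summed marker levels were tested by exact permutation. DESeq2 1.42.0, limma 3.58.1, library totals, other filters, other vehicle groups, label numbers and leaving out each mouse were tried as alternatives.

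The comparison and all gene lists were chosen with earlier results of these data known. Genes were named by rule: the 10 largest differences in each direction among called genes averaging 5 CPM or more without overlap, up to 4 called members of each list in each direction, and 25 genes named whether called or not. Some genes that the rule names are not reported here. Hspa5, Pdia6, Creld2, Dnajc3, Xbp1, Asns, Atf3 and Atf4 lie outside the rule and were named after their values were seen. Promoter windows came from RefSeq on GRCm38.p6. Figures were drawn with matplotlib 3.10.9.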

Additional observations from a re-analysis of the deposited data

Results flagged for a closer look

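Of 110 tests for a library far from the others of its group, 7 passed the 95% limit of Dixon's test, and chance alone passes about 1 in 20. Values are log2(CPM + 1). GAL mouse 2 stood apart in 3 genes. Mup17 was at 5.22 there and at 6.75 to 6.87 in the other 3 GAL mice. Ddit4l was at 4.42 there and at 5.41 to 5.61 in the others. The short Ddit3 identifier (ENSMUSG00000116429) was at 5.50 there and at 0 in the others. Acot5 was at 0.0496 in GAL mouse 4 and at 0 in the other GAL mice, a value under the level of 3 estimated counts. In the CCl4 group, Acot5 was at 2.45 in mouse 12 and at 3.14 to 3.62 in the other 6. Mki67 was at 1.32 in CCl4 mouse 5 and at 0.476 to 0.836 in the others. Alb was at 13.3 in CCl4 mouse 11 and at 14.05 to 14.4 in the others.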

How the results depend on the processing

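The direct comparison called 4783 to 6747 genes over the other fits of all 11 mice, beside 6248 as reported. The lowest count came from the filter at a mean of 5 CPM, which leaves out genes under that level, and 4241 genes were called in both fits. When single mice were left out, 4897 to 7236 genes were called, lowest without GAL mouse 4 and highest without GAL mouse 2. At least 99.984% of the genes called as reported and still tested kept their direction in each of these alternatives. All of these fits reuse the same mice, so little change of direction could arise. A log2 fold change of at least 1 in size was reached by 3019 of the called genes, 1644 higher with CCl4 and 1375 higher with GAL. With library totals in place of TMM, 2048 genes were higher with CCl4, and 5033 genes were called in both fits. The median over all genes then shifted by -0.23 in the direct comparison, 0.53 for CCl4 against vehicle and 0.83 for GAL against vehicle.

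The side of a difference depended more on the processing. With library totals 7149 genes were above vehicle and 1736 below with CCl4, and 8345 above and 1758 below with GAL. Against the 2 intraperitoneal saline mice alone, CCl4 lowered 2393 genes, and GAL differed in 4416, 1981 above and 2435 below. Genes moving apart numbered 129 against those 2 mice and 286 with library totals, and genes called against vehicle in neither numbered 2221 and 247. No paired analysis was possible for CCl4 against GAL because their labels share 1 number. Label numbers did not pair the vehicle mice either: correlations of deviations were -0.07 to 0.19 for CCl4 and -0.09 to 0.15 for GAL with gavage vehicle mice of the same number. With the label number as a replicate block, CCl4 differed from vehicle in 4926 genes, 2334 of them above, and GAL in 6791.

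Of 174 genes named by rule, 54 lost their call in at least 1 alternative and none reversed. The settings with 20 or more losses were all 57 libraries in 1 fit (32 genes), without GAL mouse 7 (23), without GAL mouse 4 (22), among label numbers above 4 (22), without GAL mouse 8 (20) and CCl4, GAL and vehicle in 1 fit (20). Calls lost among label numbers above 4 included those for Mup19, Ctsc, Hspa1b, Tnfrsf1b, Il1b, Rsad2, Mmp12, Cd3g and Muc1. With all 57 libraries in 1 fit they included those for Gsta1, Il1rn, Cxcl1, Icam1, Nfkbia, Ccnd1, mt-Nd1 and mt-Nd2. When single mice were left out, differences of summed log2 levels ran from -1.06 to -0.85 for Kupffer cell, -1.35 to -1.06 for B and plasma cell, -0.84 to -0.65 for stellate cell and -0.89 to -0.71 for sinusoidal endothelial markers. They ran from 0.34 to 0.50 for myofibroblast genes and from 0.41 to 0.71 for recruited monocyte markers. With 1 mouse fewer the exact test has fewer divisions, and each of these 6 lists missed the threshold in at least 1 case or, for monocytes, passed it. The myofibroblast difference was 0.18 with library totals. On simulated data with 200 genes changed, 21.7% of 2-fold changes were recovered. Far more genes were called in the data, so this share does not measure the power of the reported test. A small difference without a call may still have been missed.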

Other observations

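Gene families outside the lists were looked at by symbol after their values had been seen, so their counts are descriptions without a test of the family. They are set beside the 22.2% of all genes called higher with CCl4 and the 20.3% called higher with GAL.

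The machinery that brings proteins into the ER followed the ER chaperones. Of 33 genes of the translocation channel, the signal recognition particle, the signal peptidase and the oligosaccharyltransferase, 32 were higher with CCl4 and none with GAL (median log2 fold change 1.49). In 20 of them CCl4 lay above vehicle and GAL below it. The channel subunit genes Sec61b and Sec61g differed by 2.76 and 2.62, the signal peptidase gene Sec11c by 2.54 and the oligosaccharyltransferase gene Ostc by 2.35, all called by edgeR. The member not called was Sec61a2, at -0.46. With library totals 28 were higher with CCl4 and 1 with GAL. Genes of the COPI and COPII coats, which move vesicles between the ER and the Golgi, were higher with CCl4 in 15 of 23 cases and with GAL in 1, and in 9 and 1 with library totals.

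Ribosomal protein genes moved together by small amounts. Of 76 genes of the cytosolic ribosome tested, 74 were higher with CCl4 and none with GAL, with a median log2 fold change of 0.82 and 71 still higher with CCl4 under library totals. Against vehicle, CCl4 raised 71, and GAL raised 1 and lowered 14. Rps12 differed by 1.39. This contrasts in direction with the nucleolar genes of ribosome assembly described above, of which 8 were higher with GAL. Splicing factors leaned toward GAL: of 27 SF3 and U snRNP protein genes, 16 were higher with GAL and 1 with CCl4, among them Snrnp200 at -1.17. Of 13 RNA polymerase II subunit genes, 5 were higher with GAL and 1 with CCl4, and the largest subunit, Polr2a, differed by -1.43. With library totals 21 of the splicing genes and 8 of the polymerase genes were higher with GAL. Proteasome subunits were divided, with 8 of 38 higher with CCl4 and 5 with GAL, both under the shares of all genes, and the lean turned round with library totals, at 5 with CCl4 and 9 with GAL.

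All 6 Cyp4a genes tested were higher with GAL, including Cyp4a31 at -2.51, and 3 of them were above vehicle with GAL and below it with CCl4. Major urinary protein genes were higher with GAL in 12 of 19 cases and with CCl4 in none, though their near-identical copies make the single values uncertain. With library totals the Cyp4a counts were the same and 15 of the 19 major urinary protein genes were higher with GAL. Whether the cells that make up the tissue had a part in these family differences was not tested.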
